A study of Mus musculus with 4 samples.

Results

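*Erf*, *Tcf12*, *Il11ra1*, *Rab23*, *Smad6*, *Ski*, *Por*, and *Recql4* are mouse counterparts of genes in which inherited variants give rare forms of craniosynostosis, the premature fusion of the sutures between the skull bones. They were taken by symbol, and all 8 were found among the 23946 gene symbols of each library. Bulk RNA-seq profiled skeletal stem/progenitor cells, sorted as CD51+;CD200+ and negative for lineage antigens, from the posterofrontal (PF), sagittal (SAG), and coronal (COR) cranial sutures and from the growth plate (GP) of the tibia, which served as the control tissue. All cells came from wild-type CD-1 mice, an outbred stock, at postnatal day 3. No group carried a transgene or received an agent. Cells of several animals were pooled, and there was 1 library per tissue, so no replicate error exists and no test between tissues was made. The comparisons address how transcription of these genes differs between cells of the PF suture, which fuses early in life, and cells of the SAG and COR sutures, which remain patent.

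Cranial sutures grow at bone fronts where mesenchymal progenitors either keep dividing or turn into osteoblasts, and craniosynostosis genes act at many points of that choice. IL11RA is the receptor chain that binds interleukin 11 and signals through the shared chain gp130. SMAD6 restrains BMP signaling inside the cell, SKI restrains TGF-beta and BMP responses in the nucleus, and RAB23 is a small GTPase that restrains hedgehog signaling. TCF12 is an E protein that pairs with TWIST1 on DNA, and ERF is an ETS-family repressor that leaves the nucleus when ERK phosphorylates it. POR passes electrons to microsomal cytochrome P450 enzymes, among them one of cholesterol synthesis and those that break down retinoic acid. RECQL4 is a DNA helicase used when replication starts.

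Expression was deposited as FPKM, which divides the fragments of a gene by its transcript length and by the size of the library, so that genes as well as libraries can be compared. Sequencing depth was not given. An estimate from the most frequent low value of FPKM times transcript length put the PF library at 43.9% of the depth of SAG. COR was at 87.4% and GP at 82.9%. *Itgav*, the gene of CD51, was at 6.20 to 14.99 FPKM and *Cd200* at 23.5 to 62.6 FPKM. Of the genes of antigens sorted against, *Enpep* (6C3) was at 7.05 FPKM in PF and 1.39 to 3.74 FPKM elsewhere. Summed markers of other cells differed between tissues: 9 chondrocyte genes summed to 193, 5557, 149, and 3082 FPKM in PF, SAG, COR, and GP, 7 choroid plexus genes to 483, 5362, 147, and 11.2 FPKM, and 6 genes of dividing cells to 27.6, 119, 130, and 125 FPKM. Leukocyte genes summed to 5.46 to 34.4 FPKM, most in PF, where *Lyz2* alone was at 30.2 FPKM, against 4.15 to 7.53 elsewhere. *Cd68* was at 3.63 FPKM in PF and 3.01 in SAG, and *Laptm5* at 7.95 FPKM in GP. *Ptprc* was at 0.568 FPKM in PF and lower elsewhere, *Csf1r* was under 1 FPKM, and *Tyrobp* was listed at 0 in all 4 libraries. Neuron genes summed to 3.92 to 10.6 FPKM, and endothelial genes to 0.811 to 16.3 FPKM. The part of all these markers in the levels below was not tested. In bulk samples, fewer cells of a type and less RNA per cell cannot be told apart.

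Identification of *Il11ra1* reads is limited by copies of the gene. In the GENCODE annotation of mm9, the authors' genome build, *Il11ra1* lies on the plus strand at chr4:41647021-41716347. *Il11ra2*, *Gm13305*, and *Gm2002*, 3 copies on the same chromosome, are each identical to it at 1286 of 1299 coding bases (99.0%) and identical to each other over the coding sequence. The stretch below, coding bases 647 to 706 at chr4:41712984-41713043 on the plus strand, within coding exon 7 of 12, is shown because it holds 2 of the 13 differing bases, in capitals, by which a read can be placed.
Il11ra1: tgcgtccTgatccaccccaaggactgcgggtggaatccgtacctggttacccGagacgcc
Il11ra2, Gm13305, and Gm2002: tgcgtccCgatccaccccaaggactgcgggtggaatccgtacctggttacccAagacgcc
Of all 50-base windows of the longest *Il11ra1* coding transcript, 911 of 1960 (46.5%) also occur in a copy, as do 600 of 1910 windows of 100 bases (31.4%). The level listed for *Il11ra1* may therefore hold reads of the copies, or lack some of its own. *Il11ra2* and *Gm2002* were listed at 0 in all 4 libraries, and *Gm13305* at 1.34 FPKM in PF and 0.170 to 0.511 FPKM elsewhere.

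*Il11ra1* was the most abundant of the 8 genes in every library and the one with the largest fold between any pair of tissues among those above 1 FPKM. The level was 548 FPKM in PF, followed by 143 in GP, 128 in COR, and 78.7 in SAG. PF was highest, 3.84-fold above GP, and SAG lowest, while GP and COR differed by 1.11-fold. The PF level was higher than that of 99.4% of all symbols in that library. On the log2(FPKM + 1) scale, the PF level exceeded that of SAG by 2.78, COR by 2.09, and GP by 1.93, larger than 99.3% and 97.3% of the genes compared for SAG and COR. These ratios are not free of a trend with base composition: genes richer in G and C read higher in PF than in the other libraries, from a median log2 ratio of -0.42 in the lowest quintile of GC content to 0.58 in the highest for PF over SAG. The longest *Il11ra1* transcript is 58.7% GC against a median of 50.3% over 12494 genes. After removal of the trend, the PF ratios of *Il11ra1* were 2.16 over SAG, 1.76 over COR, and 1.48 over GP, the last of these just under 3-fold.

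**Figure D1:**
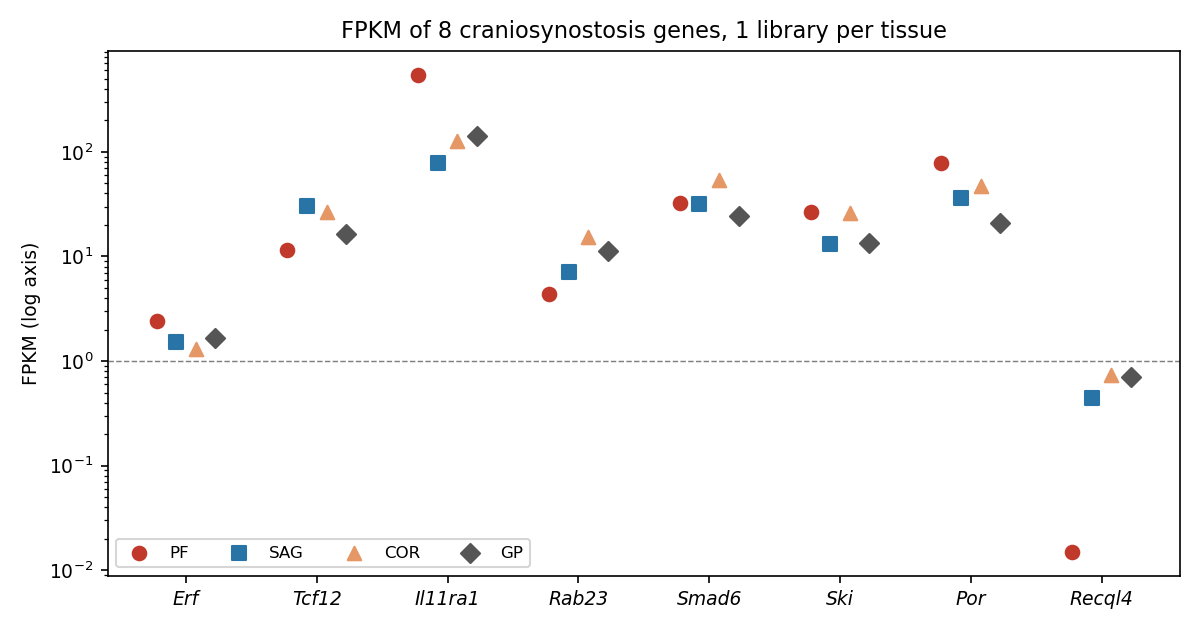
FPKM (log axis) of the 8 genes, 1 point for each library of CD51+;CD200+ cells from PF, SAG, COR, and GP. *Il11ra1* is at 548 FPKM in PF against 78.7 to 143 in the other libraries, and *Recql4* is at 0.0150 FPKM in PF against 0.441 to 0.729.

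The promoter of *Il11ra1* holds CG dinucleotides in a number near the middle of mouse promoters. Shown because the gene has the largest PF excess of the 8, it is given as the 300 bases around the start in RefSeq (GRCm38.p6, chr4:41760193-41760492, plus strand), with its 7 CG dinucleotides in capitals.
Il11ra1 promoter: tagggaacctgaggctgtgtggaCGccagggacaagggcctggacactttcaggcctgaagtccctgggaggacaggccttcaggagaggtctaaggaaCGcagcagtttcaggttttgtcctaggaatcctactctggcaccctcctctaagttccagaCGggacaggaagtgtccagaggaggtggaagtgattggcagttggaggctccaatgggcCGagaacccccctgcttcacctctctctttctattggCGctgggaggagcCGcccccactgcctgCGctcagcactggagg
At least as many CG dinucleotides are found in 52.1% of the 32851 promoter windows of RefSeq. *Cntfr*, the ciliary neurotrophic factor receptor gene, runs the other way, from an annotated start 2900 bases from that of *Il11ra1*. Its level ran from 82.6 FPKM in PF through 10.01 in SAG and 2.22 in COR to 0.588 in GP, so PF was highest for both receptor genes. *Cntfr* was chosen after its values were seen. The annotated span of *Il11ra1* overlaps *Dctn3* (102, 92.8, 112, and 84.1 FPKM in PF, SAG, COR, and GP) and *Galt* (11.6, 17.2, 9.03, and 10.2), and whether the libraries kept strand is not stated.

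Of the 15 other gp130 pathway genes, 10 reached 1 FPKM in PF or SAG. For PF over SAG, 2 of these were at least 3-fold higher and 1 lower, with a median log2 ratio of 0.89 against 0.03 over all genes, and of 0.60 after removal of the GC trend described above. Of all 13490 genes compared between PF and SAG, 6.64% were at least 3-fold higher in PF and 9.04% lower, 15.7% in all. *Il6st*, the gene of gp130 itself, reached 42.1 FPKM in PF, against 18.2, 18.7, and 16.9 in SAG, COR, and GP. Within a library, *Il11ra1* stood above *Il6st* by 13.0-fold in PF, 4.32-fold in SAG, 6.85-fold in COR, and 8.41-fold in GP. *Il11*, the ligand, was named after its values were seen: its FPKM was 17.8 in GP and 3.95 in PF, with 0.458 in COR and 0.212 in SAG, so its highest level was in GP rather than in PF. *Lifr*, the receptor of leukemia inhibitory factor, was at 13.3, 2.66, 19.3, and 9.52 FPKM in PF, SAG, COR, and GP, lowest in SAG. *Socs3*, a feedback inhibitor transcribed on gp130 signaling, ran from 292 FPKM in SAG through 50.8 in GP and 46.2 in COR to 24.3 in PF, lowest where *Il11ra1* was highest and highest where it was lowest. The SAG library was also the one with the most choroid plexus transcripts. For PF over COR, 1 of 10 pathway genes was at least 3-fold higher and none was lower, with a median log2 ratio of 0.06, which was -0.13 after removal of the GC trend. The shares of all genes were 6.81% higher and 4.87% lower, 11.7% in all.

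**Figure D2:**
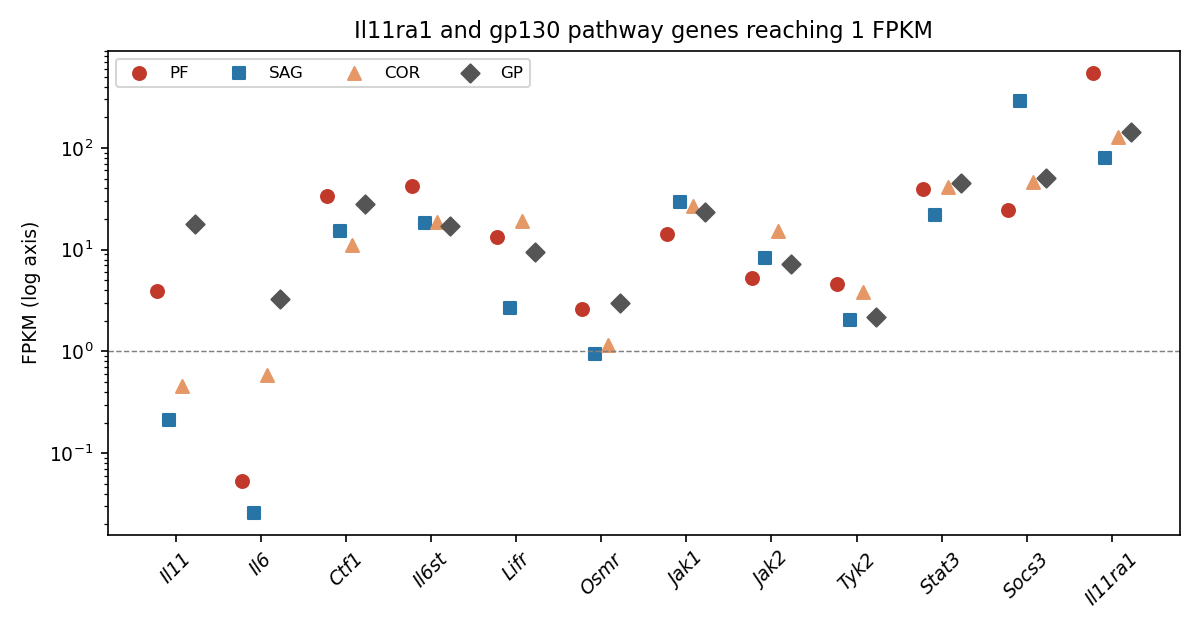
FPKM (log axis) of *Il11ra1* and of the gp130 pathway genes that reach 1 FPKM in at least 1 library, 1 point for each library, with a dashed line at 1 FPKM. *Il11ra1* and *Il6st* are highest in PF, *Socs3* is highest in SAG at 292 FPKM, and *Il11* is highest in GP at 17.8 FPKM.

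*Smad6* was most abundant in COR. The COR library listed 54.0 FPKM, PF 32.5, SAG 31.7, and GP 24.2. PF and SAG differed by 1.03-fold, and COR stood 1.66-fold above PF and 2.24-fold above GP. The PF over SAG ratio, 0.04 on the log2 scale, was -0.71 after removal of the GC trend; the transcript, at 61.8% GC, is the most GC-rich of the 8. The COR over GP ratio was 1.13 and remained at 0.98 after that correction. It was larger than 97.7% of the genes compared in that pair, which had the fewest genes past 3-fold. *Smad7*, the other inhibitory SMAD, had 5.35 FPKM in PF, 4.47 in GP, 2.95 in COR, and 2.497 in SAG. *Smad6* stood above it by 6.08-fold in PF, 12.7-fold in SAG, 18.4-fold in COR, and 5.41-fold in GP. Of the 12 other BMP receptor, SMAD, and SMURF genes tested, 0 were at least 3-fold apart between any pair of sutures, against 15.7%, 11.7%, and 9.25% of all genes for PF and SAG, PF and COR, and COR and SAG. They had median log2 ratios of 0.07 for PF over SAG, -0.33 for PF over COR, and 0.29 for COR over SAG, and of 0.32, -0.06, and 0.26 after removal of the GC trend. The gene lies on the minus strand at chr9:63800953-63869866.

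*Ski* split the tissues into a higher and a lower pair. The higher pair was PF at 26.9 FPKM and COR at 26.0, and the lower pair GP at 13.5 and SAG at 13.1. Within each pair the levels differed by 1.03- and 1.04-fold, and between the pairs by 1.92-fold at the closest. The log2 ratio was 0.99 for PF over SAG and 0.94 for COR over SAG, and these were 0.54 and 0.76 after removal of the GC trend, which also turned the PF over COR ratio from 0.05 to -0.17. *Skil*, the gene of the related corepressor SnoN, was at 4.40, 4.80, 5.31, and 9.18 FPKM in PF, SAG, COR, and GP, so it was highest in GP. *Ski* stood above *Skil* by 6.10-fold in PF, 2.72-fold in SAG, 4.89-fold in COR, and 1.47-fold in GP. Of 13 other TGF-beta receptor, SMAD, and corepressor genes, 1 was at least 3-fold lower in PF than in SAG and none between PF and COR, against 9.04% lower and 11.7% in either direction of all genes, with medians of -0.31 and -0.17. That gene was *Tgif1*, a homeodomain corepressor of TGF-beta responses, with most in SAG at 36.6 FPKM, then GP at 23.6, COR at 14.8, and PF at 4.91. *Ski* lies on the minus strand at chr4:154528184-154596701.

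*Rab23* was lowest in PF and highest in COR. Levels ran from 4.36 FPKM in PF through 7.16 in SAG and 11.3 in GP to 15.4 in COR. Each step in that order was 1.36- to 1.64-fold. The PF over COR ratio of -1.62 on the log2 scale was past 3-fold, lower than all but 4.59% of the genes compared, and was -1.42, under 3-fold, after removal of the GC trend. The COR over SAG ratio was 1.01 with and without that correction. The transcript, at 46.6% GC, is among the less GC-rich of the 8. *Rab23* lies on the plus strand at chr1:33776727-33799409.

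Hedgehog pathway genes differed from each other in direction. In each comparison 12 other genes were tested, with *Intu* tested only against SAG and *Ptch1* only against COR. In PF, 4 were below SAG and 5 below COR, or 7 and 4 after removal of the GC trend. Of the 12 compared with SAG, 1 was at least 3-fold higher in PF and none was lower. Of the 12 compared with COR, none was past 3-fold. The medians were 0.21 and 0.34, and -0.17 and 0.061 after that correction. The shares of all genes were 6.64% higher and 9.04% lower for PF and SAG, and 11.7% in either direction for PF and COR. The gene past 3-fold was *Gli1*, a transcriptional target of hedgehog signaling, with 7.86 FPKM in PF, followed by COR at 3.99, GP at 2.06, and SAG at 0.668. Named after their values were seen, *Intu* and *Wdpcp*, genes of ciliary effectors, were lowest in PF as *Rab23* was. *Intu* was at 0.0518 FPKM in PF, about 5.64 fragments, and at 0.836 to 1.65 FPKM elsewhere. *Wdpcp* was at 2.22 FPKM in PF and 2.72 to 8.18 FPKM elsewhere. *Gli3*, which encodes the main repressor of the pathway, varied less, from 2.75 FPKM in SAG through 3.12 in PF and 3.16 in COR to 3.95 in GP. *Rab23* stood above *Gli3* by 1.40-fold in PF, 2.61-fold in SAG, 4.89-fold in COR, and 2.87-fold in GP.

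*Tcf12* was likewise lowest in PF. SAG listed 30.7 FPKM, COR 26.4, GP 16.4, and PF 11.5. SAG and COR differed by 1.16-fold, an order that turned relative to *Gapdh*, and PF lay 2.67-fold below SAG. The PF ratios on the log2 scale, -1.34 against SAG and -1.13 against COR, were lower than all but 12.1% and 10.3% of the genes compared, and were -1.06 and -0.88 after removal of the GC trend. Its transcript has the lowest GC content of the 8, 45.1%. *Tcf12* lies on the minus strand at chr9:71692059-71959626.

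The partners of *Tcf12* differed in opposite directions. *Tcf3*, the gene of the E proteins E12 and E47, reached 71.1 FPKM in PF, against 56.2 in COR, 49.98 in SAG, and 44.8 in GP, so the *Tcf12* to *Tcf3* ratio was 0.161 in PF against 0.614 in SAG, 0.469 in COR, and 0.366 in GP. *Tcf4*, the other E protein gene, was at 9.14, 55.4, 29.7, and 27.2 FPKM, lower still in PF, and the *Tcf12* to *Tcf4* ratio was 1.26 in PF against 0.553, 0.888, and 0.602. *Twist1* was highest in COR at 124 FPKM, with 65.6 in GP, 42.1 in PF, and 40.4 in SAG. The ratio of *Tcf12* to *Twist1* was 0.758 in SAG and 0.212 to 0.273 in the other libraries, so SAG stood apart in having most *Tcf12* per *Twist1* transcript. Of 10 partner genes tested between PF and SAG, 2 were at least 3-fold higher in PF and 4 lower, against 6.64% and 9.04% of all genes, with a median of -0.67. Beside *Tcf4*, those named are *Twist2*, at 27.1, 5.43, 8.77, and 7.87 FPKM in PF, SAG, COR, and GP, the tendon factor gene *Scx*, at 60.2, 11.3, 107, and 168 FPKM, and the dimerization inhibitor gene *Id4*, at 9.92, 257, 12.7, and 10.8 FPKM. Between PF and COR, 1 of 9 was lower by at least 3-fold and none was higher, against 4.87% and 6.81%.

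*Erf* was the least abundant of the genes above 1 FPKM and varied least. Its FPKM was 2.39 in PF, 1.66 in GP, 1.53 in SAG, and 1.30 in COR. The highest and the lowest level differed by 1.84-fold. PF was highest in the deposited values, but after removal of the GC trend its log2 ratio was -0.25 to SAG, 0.20 to COR, and -0.14 to GP, so that order did not hold. *Erf* lies on the minus strand at chr7:26027580-26035780, and its transcript is 59.7% GC.

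Most genes around ERF were below SAG and COR in PF by deposited value, but fewer were relative to *Gapdh*. In each comparison 13 ERK kinase and ETS factor genes were tested, with *Etv1* tested only against SAG and *Etv4* only against COR. Of these, 9 were below SAG, 2 of them by at least 3-fold, and 10 were below COR, 2 of them by at least 3-fold. The medians were -0.48 and -0.32. The shares of all genes at least 3-fold lower were 9.04% and 4.87%. After removal of the GC trend 9 and 11 were lower, and relative to *Gapdh* 6 and 7, with medians of 0.042 and -0.07. Scaling to *Gapdh* moved the medians of all genes to 0.49 and 0.28, from 0.03 and 0.05 as listed. The medians of the list were thus below those of all genes on both scales. *Ets1*, an ETS activator, ran from 19.1 FPKM in SAG through 8.63 in GP and 7.43 in COR to 4.34 in PF. *Etv5*, an ETS factor transcribed on FGF and ERK signaling, ran in that order too, from 11.8 FPKM through 9.49 and 8.73 to 1.90. *Etv3*, the closest relative of *Erf*, was at 0.0230 FPKM in PF and 1.77, 2.44, and 1.69 FPKM in SAG, COR, and GP. By the depth estimate, the *Etv3* level in PF corresponds to about 2.08 fragments, against 366, 440, and 289. The *Erf* to *Etv3* ratio, 104 in PF and 0.532 to 0.985 elsewhere, therefore rests on few fragments in PF.

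*Por* was highest in PF and lowest in GP. Levels ran from 78.2 FPKM in PF through 47.2 in COR and 36.2 in SAG to 21.0 in GP. Each step in that order was 1.30- to 1.72-fold. The PF over GP log2 ratio of 1.85 was past 3-fold and larger than 96.5% of the genes compared, and was 1.41, under 3-fold, after removal of the GC trend. The COR over GP ratio, 1.13 and 0.98 after that correction, was larger than 97.7% of the genes compared. *Por* lies on the plus strand at chr5:136145903-136211196, and its transcript is 58.3% GC.

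Enzymes that draw on POR, or work beside it, differed from each other in order. *Cyb5r3*, which feeds electrons into the parallel cytochrome b5 route, had 277 FPKM in COR, 251 in PF, 199 in GP, and 126 in SAG. *Por* stood at 0.311 of it in PF and 0.288 in SAG, but at 0.170 in COR and 0.105 in GP. *Cyp51*, the P450 of cholesterol synthesis, had 19.2 FPKM in PF and 25.9 to 32.1 in the other libraries, lowest where *Por* was highest. Of 14 genes tested, PF exceeded SAG at least 3-fold in 1 and fell short of it in 1, and exceeded COR in 1 and fell short in none, with all-gene shares of 6.64% and 9.04% and of 6.81% and 4.87%, and with medians of -0.17 and -0.15. *Cyp1b1*, a P450 that oxidizes estrogens and retinoids, had 14.9 FPKM in PF, then 2.76 in SAG, 1.36 in GP, and 0.500 in COR, with PF highest as for *Por*. *Cyp7b1*, an oxysterol hydroxylase, was at 3.01, 22.8, 0.768, and 3.27 FPKM, with SAG highest. *Cyp26b1*, a retinoic acid hydroxylase and itself a craniosynostosis gene, was at 1.30, 0.885, 0.658, and 2.43 FPKM.

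*Recql4* was under 1 FPKM in every library and was not counted in the comparisons. COR listed 0.729 FPKM, GP 0.697, SAG 0.441, and PF 0.0150. PF was lowest by 29.4-fold or more, and COR and GP differed by 1.04-fold. By the depth estimate, the PF level corresponds to about 1.04 fragments, and those of SAG, COR, and GP to 69.4, 100.2, and 90.9, so the size of the PF fold rests on about 1 fragment. At the depth of the PF library, the levels of SAG, COR, and GP would have given 30.5, 50.3, and 48.2 fragments. Of 72 genes listed at 0.4 to 0.8 FPKM in all of SAG, COR, and GP, 8 (11.1%) were as low as *Recql4* or lower in PF, 5 of them at 0, with a median PF level of 0.604 FPKM. Counts were not used here, so no counting interval is given.

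As listed, the neighbours of *Recql4* were highest in PF, where it was lowest. The gene lies on the minus strand at chr15:76533984-76540963, and its start lies 90 bases from that of *Lrrc14*, which is transcribed the other way from chr15:76541053. The 89 bases between the starts, shown as the region from which both transcripts begin (mm9, chr15:76540964-76541052, plus strand), are 67.4% GC, with 7 CG dinucleotides in capitals.
Recql4 to Lrrc14: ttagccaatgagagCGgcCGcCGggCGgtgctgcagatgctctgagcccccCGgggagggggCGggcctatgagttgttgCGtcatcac
*Lrrc14* ran from 28.1 FPKM in PF through 17.2 in SAG and 15.6 in COR to 11.6 in GP. *Mfsd3*, which overlaps the other end of *Recql4* by 686 bases on the opposite strand, had 9.49 FPKM in PF, 5.48 in COR, 4.96 in SAG, and 3.47 in GP. Both were chosen for their position after the values were seen.

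In the list of RecQ helicase and replication origin firing genes, PF was below SAG for 13 of 16 and below COR for 10 of 15 by value. Split by role after the values were seen, the other RecQ helicase genes were below in 4 of 4 and 3 of 3, and the origin firing genes in 9 of 12 and 7 of 12. Relative to *Gapdh*, the helicase genes were below in 3 of 4 and 3 of 3. The origin firing genes were then below in 7 of 12 and 5 of 12, with a median of 0.059 for PF over COR. The medians of the whole list were -0.59 and -0.33 on the log2 scale and -0.48 and -0.35 after removal of the GC trend. Relative to *Gapdh* the medians of the whole list were -0.11 and -0.09, with 10 of 16 and 8 of 15 lower. The medians of all genes were 0.03 and 0.05 as listed and 0.49 and 0.28 relative to *Gapdh*. On both scales the medians of the list were below those of all genes. In both comparisons *Gins1* alone, a subunit of the replicative helicase complex, was past 3-fold, with 9.72 FPKM in SAG, 7.02 in GP, 4.21 in COR, and 0.461 in PF. That is 1 of 16 and 1 of 15 lower by at least 3-fold, against 9.04% and 4.87% of all genes. By the depth estimate, the PF level of *Gins1* corresponds to about 8.55 fragments, against 155 to 411 elsewhere. *Blm*, another RecQ helicase gene, had 0.637 FPKM in PF and 0.874 to 1.18 in the other libraries, so *Recql4* stood at 0.0235 of it in PF and 0.417 to 0.834 of it elsewhere. Summed markers of dividing cells were also lowest in PF, 27.6 against 119 to 130 FPKM, and their part in these levels was not tested.

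**Figure D3:**
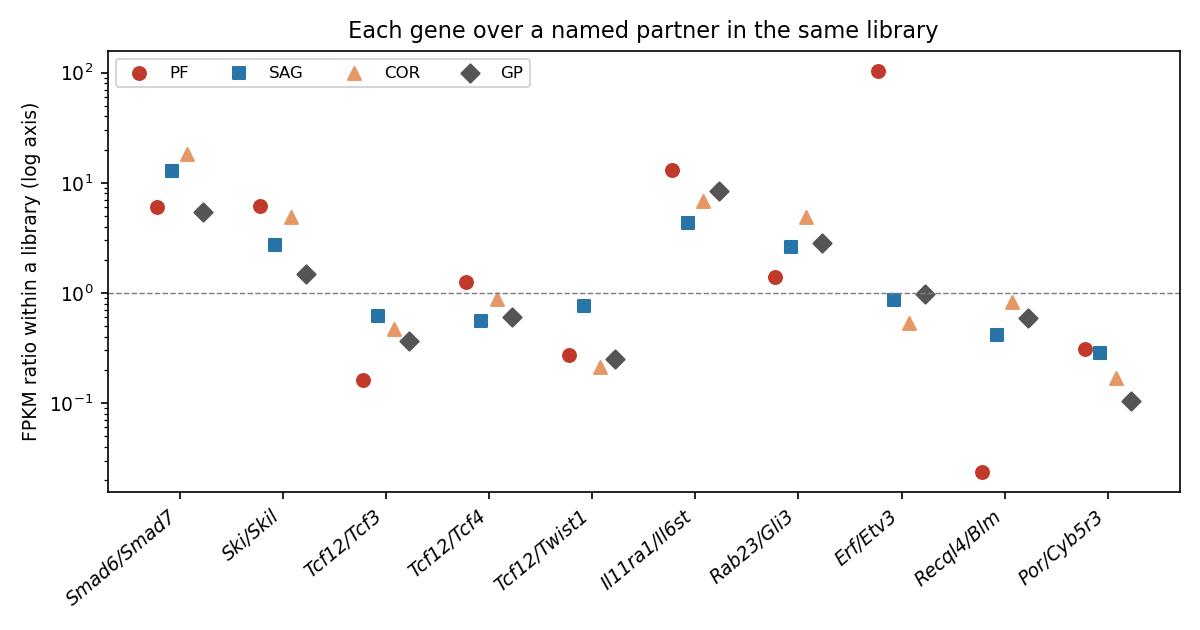
FPKM of each gene divided by that of a named partner in the same library (log axis), 1 point for each library, with a dashed line at a ratio of 1. The ratio of *Tcf12* to *Tcf3* is lowest in PF at 0.161, that of *Smad6* to *Smad7* highest in COR at 18.4, and those of *Erf* to *Etv3* and of *Recql4* to *Blm* rest on about 2.08 and 1.04 fragments in PF.

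Across the set, at most 2 genes were past 3-fold in any comparison. Of 7 genes tested, 1 was at least 3-fold apart between PF and SAG (*Il11ra1*, higher in PF), against 15.7% of all genes. Between PF and COR it was 2 of 7 (*Il11ra1* higher and *Rab23* lower in PF), against 11.7%. Between PF and GP it was 2 of 7 (*Il11ra1* and *Por*, both higher in PF), against 12.0%. There were 0 of 7 for COR and SAG, against 9.25%, 0 for SAG and GP, against 8.66%, and 0 for COR and GP, against 4.40%. At 2-fold the counts were 3, 3, 1, 3, 0, and 2 in PF over SAG, PF over COR, COR over SAG, PF over GP, SAG over GP, and COR over GP, against 34.7%, 29.4%, 20.1%, 29.1%, 18.0%, and 9.95% of all genes.

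The set had no shared direction between PF and the open sutures. The median log2 ratio over the 7 genes was 0.42 for PF over SAG, with 5 higher and 2 lower, and 0.05 for PF over COR, with 4 higher and 3 lower, against 0.03 and 0.05 over all genes. After removal of the GC trend these medians were -0.25 and -0.17. As listed, *Il11ra1*, *Por*, *Ski*, and *Erf* were highest in PF, *Smad6* and *Rab23* in COR, and *Tcf12* in SAG. The 4 that were highest in PF have transcripts of 55.6% to 59.7% GC, and *Rab23* and *Tcf12*, lowest in PF, have 46.6% and 45.1%; how far base composition enters each level was not tested. *Smad6* and *Recql4*, at 61.8% and 57.6% GC, were GC-rich and not highest in PF. COR over SAG, where the median ratio by quintile of GC content ran only from -0.12 to 0.24, gave 0.70 over the 7 genes, with 5 higher in COR. The comparisons share libraries, so their medians are not independent.

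**Figure D4:**
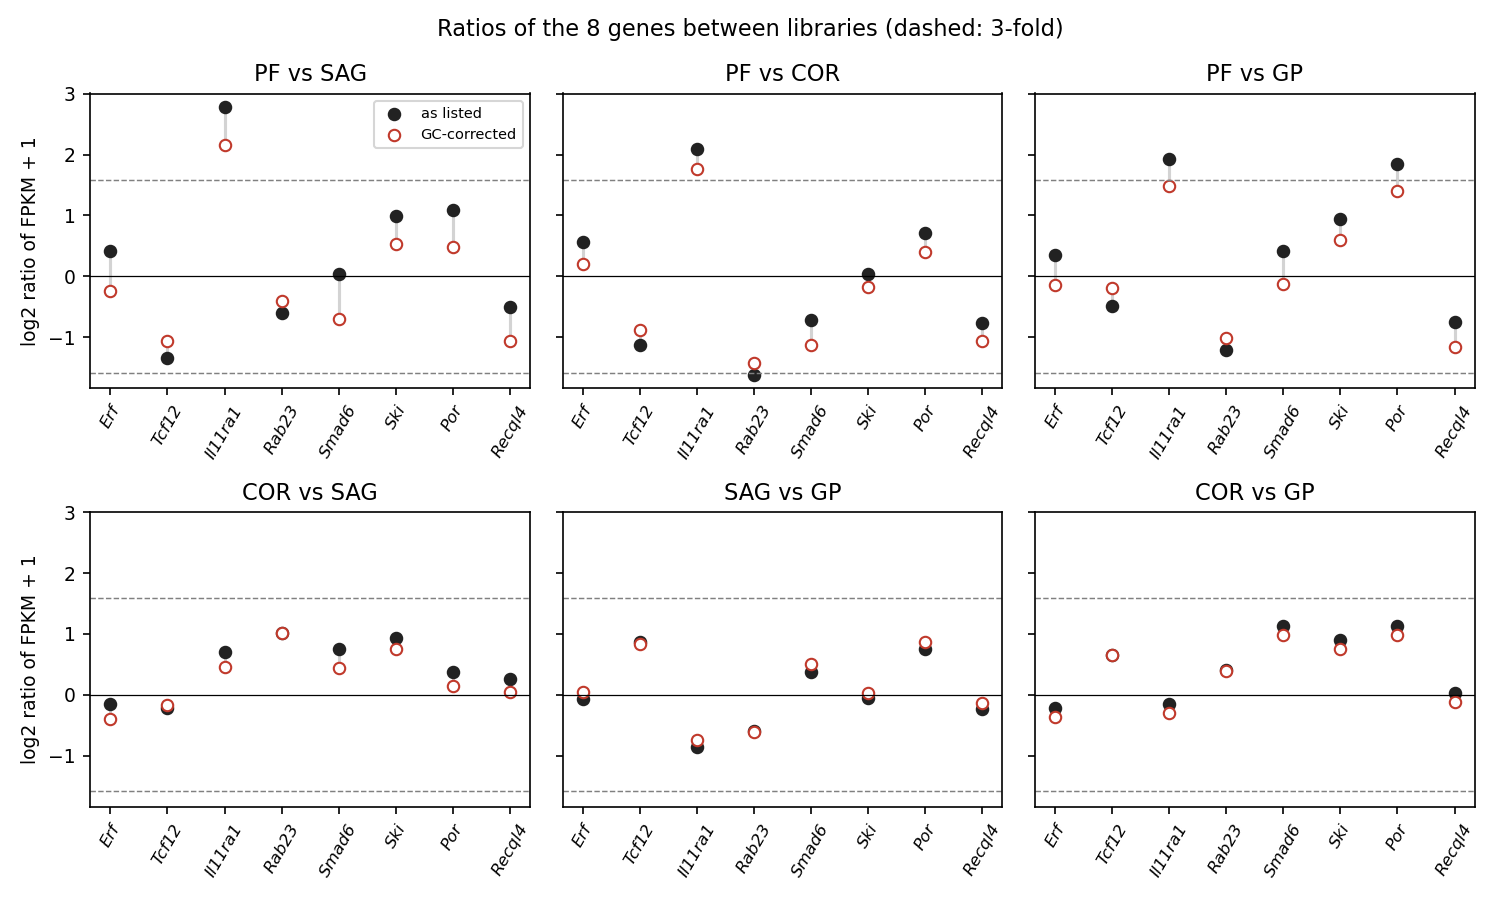
Log2 ratios of FPKM + 1 for the 8 genes in the 6 comparisons, as listed and after removal of the GC trend, with dashed lines at 3-fold. *Il11ra1* is past 3-fold in PF over SAG and over COR with both, while *Rab23* in PF over COR and *Il11ra1* and *Por* in PF over GP are past it only as listed.

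**Figure D5:**
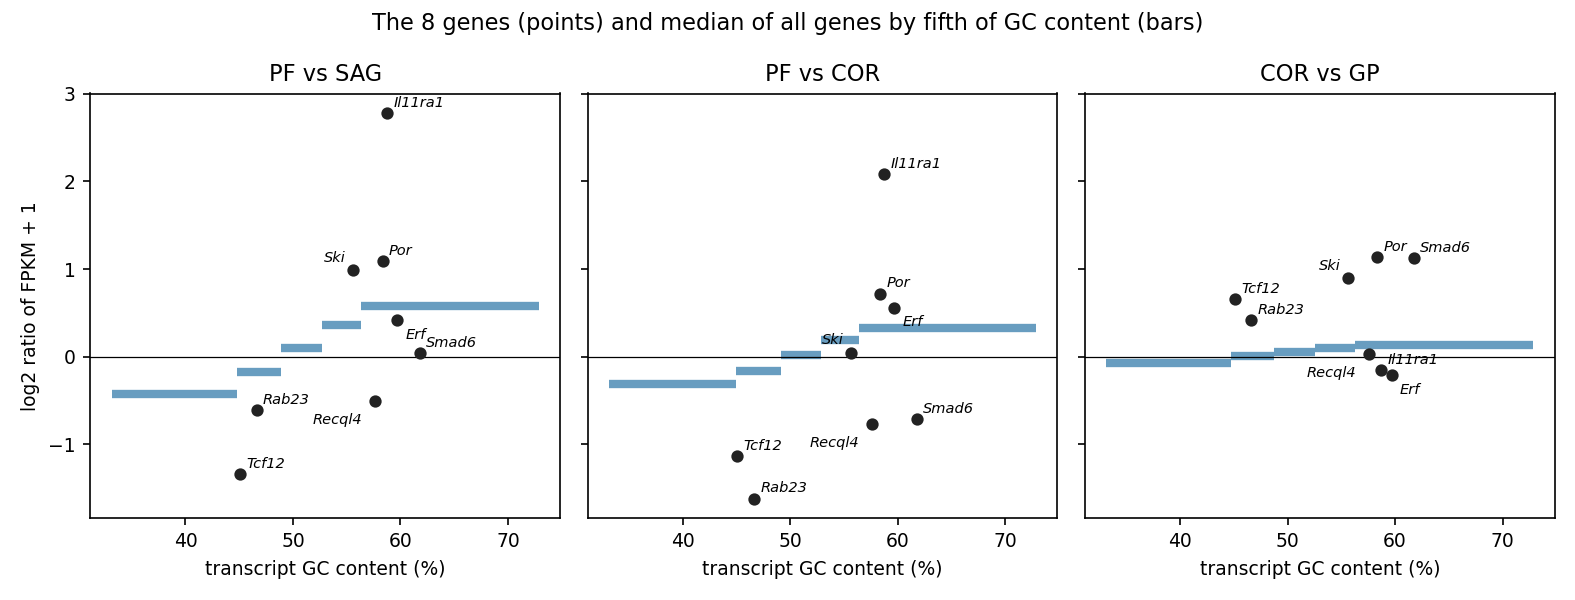
Log2 ratio of FPKM + 1 against transcript GC content (%) for the 8 genes (points), with the median of all genes in each quintile of GC content (bars). The bars climb from -0.42 to 0.58 for PF over SAG and from -0.07 to 0.13 for COR over GP, and *Il11ra1* lies above the bar of its quintile in both PF comparisons.

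Other craniosynostosis genes were described by count in the same way. Of 6 major genes of the disease, 1 was at least 3-fold lower in PF than in SAG and none was past 3-fold between PF and COR, against 9.04% lower and 11.7% in either direction of all genes, with medians of -0.0013 and -0.68. *Fgfr3*, the gene concerned, had 48.6 FPKM in SAG, 41.4 in COR, 33.8 in GP, and 13.5 in PF. Genes that the study itself picked from these libraries, which are no independent evidence of a direction here, include *Dusp6*, a feedback phosphatase of ERK, at 2.26, 24.8, 16.6, and 24.4 FPKM in PF, SAG, COR, and GP, and *Ezh2*, the histone H3K27 methyltransferase, at 2.59, 17.9, 8.73, and 14.3 FPKM. Differences between these genes and the 8 were not tested.

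The genes with the most similar pattern over the 4 libraries were found from the Euclidean distance between mean-centred log2(FPKM + 1) values. For *Il11ra1* these were *Hic1*, a transcriptional repressor gene, at a distance of 0.11, and *Rarres2*, the gene of chemerin, at 0.14, and only 5 of 13997 genes lay within 0.25. *Por* had 4 genes within 0.25, led by *Enpep* at 0.11 and *Slc16a1*, a lactate transporter gene, at 0.18. *Enpep* encodes 6C3, an antigen the cells were sorted against. *Smad6* had 11 genes within 0.25, led by *Robo1*, a guidance receptor gene, at 0.09 and *Plekho2* at 0.15. *Rab23* had 27, led by *Bmp2k* at 0.08 and *Srxn1* at 0.10, and *Tcf12* had 29, led by *Stac2* at 0.07 and the chondrocyte factor gene *Sox6* at 0.07. *Stac2* was at 0 FPKM in PF and 0.384 to 1.67 FPKM elsewhere, so its pattern on the FPKM + 1 scale carries little information. *Ski* had 40, led by *Gja1*, the gene of connexin 43, at 0.07 and *Zcchc24* at 0.08. Patterns of *Erf* and *Recql4* were flat on this scale, with 471 and 390 genes within 0.25, among them *Arhgap32* and *Atxn1* for *Erf* and *Psmg3* and *Ckap2* for *Recql4*, so their nearest genes carry little information.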

How the data were processed

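CD51+;CD200+ cells of 4 tissues gave 1 library each, mapped to its tissue from the sample labels. The authors amplified cDNA from few cells, mapped paired-end reads to mouse mm9 with STAR 2.5.1b, and deposited FPKM values from Cuffdiff (Cufflinks 2.2.1, Illumina iGenomes gene model); library scaling and strand are not given in the sources used here. A gene was compared where either library of a pair reached 1 FPKM, as log2(FPKM + 1), which understates changes of low genes, and was counted at 3-fold. GC content came from the longest coding transcript in GENCODE vM1, and its trend was removed by lowess (span 0.3, genes averaging FPKM of 5 or more). A relative depth was taken from the most frequent low value of FPKM times transcript length, in genes with 1 coding transcript. That value was read as 1 fragment, assuming scaling in proportion to fragments. Promoters for 7 of the 8 genes were found in RefSeq (GRCm38.p6).

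Named were the 8 genes, ratio partners, sorting markers, *Gapdh*, the 2 nearest patterns, and up to 4 genes per list with the largest suture ratio past 3-fold at FPKM of 5 or more; exceptions are stated. Further list members were given by value for their role. The genes and lists were chosen with earlier results of these data known. Alternatives were a pseudocount of 0.1 or none, median-ratio scaling, quantile normalization, values relative to *Gapdh*, other filters, 2-fold, and GC correction. The code was run on simulated data of 6568 genes with FPKM of 5 or more in PF and SAG and little added noise. There, 200 of 200 genes changed 8-fold were recovered, or 196 with a GC trend added and corrected, with 0 false calls. Changes that large over little noise are recovered by design. The result therefore checks the code and does not measure how reliable a 3-fold call on single libraries is. Python 3.11.15, numpy 2.4.6, pandas 2.3.3, scipy 1.17.1, and statsmodels 0.14.6 were used. Some list members and neighbouring genes are not reported here.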

Additional observations from a re-analysis of the deposited data

How the results depend on the processing

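*Il11ra1* stayed higher in PF than in SAG, COR, and GP under each setting run, by 2.16 to 3.31, 1.76 to 2.34, and 1.48 to 2.40 on the log2 scale. Of the single-gene values under alternatives, 359 kept direction and side of 3-fold, 5 lost 3-fold, 1 gained it, and 13, none past 3-fold, crossed zero. *Rab23* in PF over COR was -1.54 with quantile normalization, -1.42 relative to *Gapdh*, and -1.42 with GC correction, which left 1 gene past 3-fold each time. *Por* in PF over SAG was 1.61 relative to *Gapdh*, which made that count 2; this scaling moved the median of all genes in that comparison to 0.49. With GC correction, the PF over GP count was 0, with *Il11ra1* at 1.48 and *Por* at 1.41. At 2-fold, the counts were 3 for PF over SAG, 1 for COR over SAG, and 2 for COR over GP. The median over the genes was -0.33 for PF over COR with no filter and with FPKM of 5 or more, and -0.17 with GC correction, which also gave -0.25 for PF over SAG, -0.13 for PF over GP, and 0.041 for SAG over GP, the last 0.16 with FPKM of 5 or more. The cause was not tested. The absence of a pseudocount was tried after seeing the data. No symbol was repeated, so another handling of repeats could not change a value. No paired analysis was possible because only 1 library of every tissue was made, and for the same reason no replicate could be left out. The depth of PF limits *Recql4*, *Etv3*, *Intu*, and *Gins1*, and also *Phex* and *Ihh*, described below.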

Other observations

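Among 14 other rare craniosynostosis genes, 1 of 12 tested was at least 3-fold higher in PF than in SAG and 1 lower, and 2 of 14 were lower in PF than in COR. The shares of all genes were 6.64% higher and 9.04% lower for PF and SAG, and 4.87% lower for PF and COR. *Alpl*, the alkaline phosphatase of mineralizing bone, had 645 FPKM in COR, 461 in PF, 258 in GP, and 59.7 in SAG. *Ihh*, the hedgehog ligand of growth plate chondrocytes, had 44.0 FPKM in GP, 6.48 in COR, 0.381 in SAG, and 0.136 in PF. Its rank among sutures, with COR highest, differs from that of the hedgehog target *Gli1*, which was highest in PF. *Phex*, a phosphate-regulating gene of osteocytes, ran from 5.66 FPKM in COR through 3.74 in GP and 0.462 in SAG to 0.0527 in PF. The PF levels of *Phex* and *Ihh* are low, and their fragments were not estimated. *Wdr35*, an intraflagellar transport gene, was at 3.57, 15.3, 7.63, and 6.97 FPKM, lowest in PF. Osteoblast markers summed to 2731, 887, 11845, and 8181 FPKM in PF, SAG, COR, and GP, *Alpl* among them, and their part in these levels was not tested.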
